A study of Mus musculus with 8 samples.

Results

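One pair of arrays is described here, that of Dnmt3a-KO and wild-type (WT) muscle cells on day 5 of differentiation. It was picked by its labels and makes up 2 of the 8 arrays of the series. The cells were progeny of satellite cells, which are muscle stem cells, from the extensor digitorum longus, a fast-twitch muscle of the lower hindlimb. The donors were Dnmt3a-KO mice and WT littermates of matched age, 8 weeks old and labelled male. The cells were first grown for 5 days in growth medium, then replated at equal cell numbers in differentiation medium. RNA was taken after 2, 4, 5 or 6 days there, with 1 array per genotype and day. The labels give neither the promoter of a Cre nor the deleted part of Dnmt3a, nor whether a culture pooled several mice.

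Dnmt3a is a de novo DNA methyltransferase: it places methyl groups on cytosines, mainly those followed by guanine (CpG), and methylation of a promoter usually goes with low transcription. In differentiation medium satellite cell progeny leave the cell cycle, switch on myogenin and then the sarcomere genes, and fuse into multinucleated myotubes. Embryonic and slow myosins come first in such cultures, and the adult fast myosins follow.

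Total RNA was labelled with Cy3 and hybridised to 1-colour Agilent mouse arrays. A level below is the processed spot intensity divided by the array's 75th percentile over 43020 non-control spots, so a value of 1 is the brightness of that percentile. Differences are Dnmt3a-KO minus WT on the log2 scale, where 1 is a 2-fold difference. The 75th percentile was 722.1 intensity units on the WT array and 841.3 on the Dnmt3a-KO array, and 63.8% and 63.5% of spots were well above background by the scanner software's own call. Both arrays lay on 1 slide, in neighbouring places, together with both day 4 arrays. With 1 array a side there is no replicate check, so no p-value is given for a day 5 difference, and the number of arrays limits its precision. The technical spread can be given: 273 probes that were spotted repeatedly (median 10 spots) and well above background on both arrays had a median SD of 0.142 within the WT array and 0.147 within the Dnmt3a-KO array, and the difference of single spots had an SD of 0.203.

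The labels were checked first. Dnmt3a stood at 2.50 on the WT array and at 0.542 on the Dnmt3a-KO array, 21.7% of WT and a difference of -2.21. Its probe lies at chr12:3914320-3914379 (mm9, the build named in the scanner files), and no source used here says whether that stretch is in the deleted part. Sex-linked transcripts went against the label male on both day 5 arrays alike. Xist, a long RNA made from the inactive X, stood at 0.642 in WT and 0.527 in Dnmt3a-KO cells, while 4 genes of the Y chromosome (Uty, Kdm5d, Eif2s3y and Ddx3y) were not well above background on either. Both day 2 arrays had the opposite pattern. The muscle identity of the cells was plain: all 9 myoblast and myotube markers were well above background on both arrays, among them desmin (Des) at 63.8 and 59.4, myogenin (Myog) at 68.6 and 62.9 and the troponin Tnnt3 at 239 and 216, and none differed by 2-fold. Of 6 satellite cell markers 5 were well above background, Myf5 being the exception. Markers of other cell types were mostly dim. Those above 1 on both arrays were Acta2, the endothelial Kdr (3.64 and 2.97), the fibroblast Ly6a (1.85 and 2.40) and, of smooth muscle and pericytes, Cspg4 (2.72 and 3.25) and Cnn1 (1.51 and 1.51). The summed level ran from 1.43 in WT to 1.36 in Dnmt3a-KO for 6 macrophage and leukocyte markers (Cd68 and Lyz2 not well above background), from 3.72 to 3.06 for 4 endothelial markers (Cdh5 not), and from 0.333 to 0.390 for 4 Schwann cell markers. The sums were 0.0858 and 0.116 for 4 adipocyte markers and 0.138 and 0.105 for 4 epithelial ones (Epcam not well above background). Smooth muscle markers summed to 146 and 116, nearly all from Acta2 (141 and 110), an actin that young myotubes express too. The 6 fibroblast markers summed to 2.51 in WT and 4.26 in Dnmt3a-KO, with Lum and Dpt not well above background. In RNA from a whole culture, fewer cells of a type and less RNA per cell cannot be told apart.

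The Dnmt3a-KO array of day 5 also stood apart from its own neighbours in time. Over 17357 genes well above background on all 6 arrays of days 4 to 6, 4.71% differed by 2-fold or more between Dnmt3a-KO days 4 and 5 and 3.07% between days 5 and 6, against 1.33% between days 4 and 6. In WT cells the corresponding shares were 0.703%, 1.47% and 1.84%. The genotypes themselves differed by 2-fold on day 5 in 1.81% of these genes, fewer than on day 4 (3.48%) or day 6 (2.13%). No day 5 difference can be given without this array.

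Of 31684 genes on the array, 20807 were well above background on at least 1 day 5 array and 18923 on both. Among the 20807, 329 were at least 2-fold brighter in Dnmt3a-KO cells (1.58%) and 608 at least 2-fold dimmer (2.92%), 4.5% in either direction. By the bound described for spots seen on 1 array, 171 and 340 reached 2-fold. Of the 329 and 608, 131 and 238 were well above background on both arrays, and 11 and 22 of those differed by 4-fold or more. The median difference over genes measured on both was -0.05 with an SD of 0.34, and 92.7% lay within 1.5-fold. The share of dimmer genes among the 2-fold ones was 64.9%, and it was 51.3% after quantile normalization (478 brighter, 504 dimmer) and 54.1% after normexp background correction (61 and 72). By signal, the median was -0.19 among the 3499 dimmest genes, -0.00 among 3717 bright ones and -0.05 among the 4416 brightest, and 3.12% of the dimmest but 0.294% of the brightest genes differed by 2-fold. Another measured probe existed for 57 of the 2-fold genes, and in 45 of them (78.9%) every other probe had the same sign. Of the 937, 125 brighter and 267 dimmer ones carry a Gm or Rik name, a clone or accession name, or a name not found in RefSeq. By rule these are not named.

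**Figure D1:**
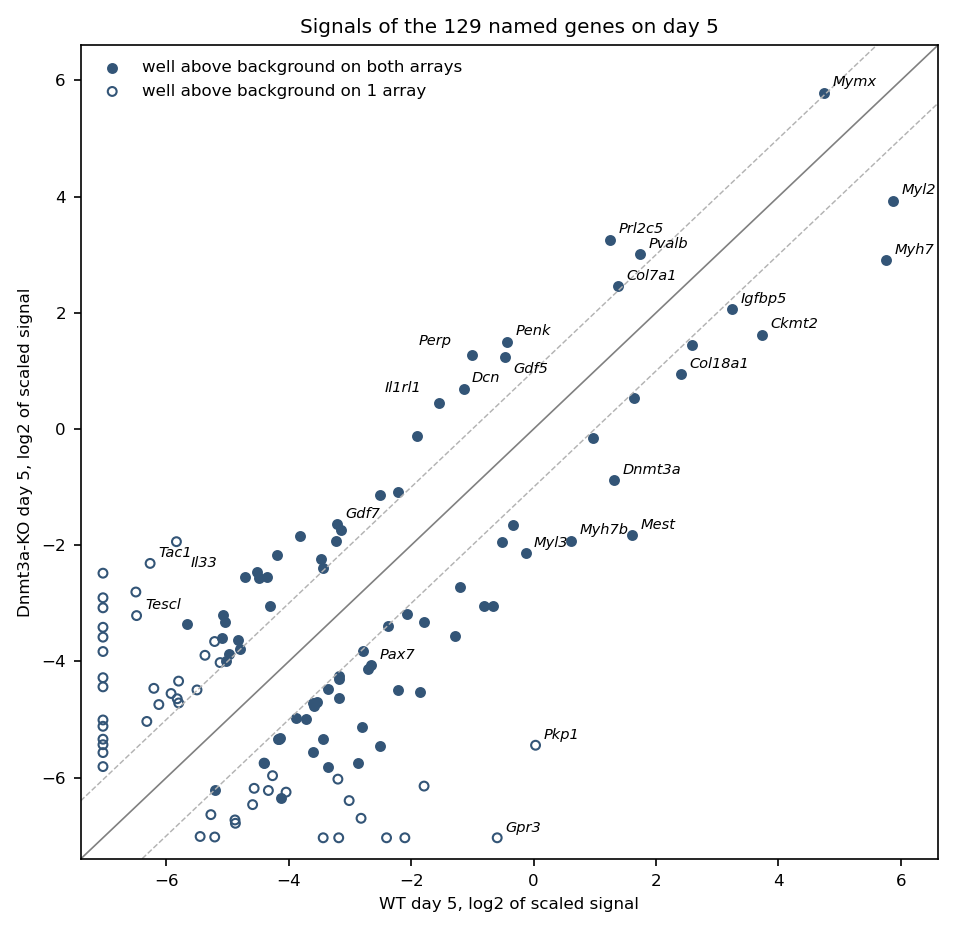
Signals of the 129 named genes on day 5, as log2 of the scaled signal in WT (x axis) and Dnmt3a-KO cells (y axis); the solid line marks equal signal and the dashed lines a 2-fold difference. Filled points were well above background on both arrays and open points on 1, and the brightest dimmer genes, Myh7 and Myl2, lie far below the dashed line at log2 signals of 5.75 and 5.88 in WT.

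Slow and cardiac sarcomere genes held several bright members with large differences. Of 21 genes of slow and cardiac muscle fibres, 18 were measured, 6 were at least 2-fold dimmer in Dnmt3a-KO cells, none was brighter by that fold, and 16 of 18 lay below 0. Over all measured genes 2.92% were dimmer and 1.58% brighter by that fold, and 59.8% lay below 0. The median was -0.41, against -0.05 over all genes measured on at least 1 array. It shrank to -0.25 after quantile normalization and -0.29 after loess. It was negative under all 8 settings of scaling, background and probe choice, the main one included. On days 2, 4 and 6 the list median was 0.08, -0.49 and -0.06. All 3 slow or cardiac myosin heavy chains, the motors of the thick filament, were among the 6. Myh7, the slow and beta-cardiac heavy chain, stood at 54.0 in WT and 7.49 in Dnmt3a-KO, a difference of -2.85. Myh7b went from 1.53 to 0.264 (-2.53), and Myh6, the alpha-cardiac heavy chain, from 0.328 to 0.118 (-1.47). Each of these 3 was dimmer in Dnmt3a-KO cells on all 4 days. The slow light chains that sit on the neck of these myosins were dimmer too: Myl2 stood at 58.8 and 15.2 (-1.95) and Myl3 at 0.915 and 0.227 (-2.01), whereas Myl4, the embryonic and atrial light chain, stood at 479 and 394 (-0.28). Myl2 gave -2.01, -2.46 and -0.20 on days 2, 4 and 6, and Myl3 gave 0.39, -1.93 and -0.97. Ankrd2, a stretch-responsive ankyrin repeat protein of slow fibres, was the sixth, at 31.4 and 10.1 (-1.64). Myh6 and Ankrd2 fall outside the naming rule and were named after their values were seen.

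The other slow genes differed less. The slow troponins Tnnt1, Tnnc1 and Tnni1, which make up the calcium switch of the thin filament, gave -0.44, -0.37 and -0.36, cardiac actin (Actc1) -0.34 and cardiac troponin T (Tnnt2) -0.18. Csrp3, a Z-disc protein, stood at 41.7 in WT and gave -0.74, and Atp2a2, the slow calcium pump of the reticulum, at 25.6 and 18.9 (-0.44). Tpm3 (0.15) and Ankrd1 (0.10) were the 2 members above 0, by less than the SD of a single-spot difference, but a second Tpm3 probe gave -3.53. By the brightest probe of each gene the list was thus split. All 3 myosin heavy chains, 2 of 3 light chains and Ankrd2 lay beyond 2-fold. No thin filament gene did by that probe, although the second Tpm3 probe lay beyond 2-fold. Ckmt2, the mitochondrial creatine kinase of striated muscle and no member of the list, stood at 13.3 and 3.08 (-2.11).

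Fast fibre genes did not share these values. All 17 fast sarcomere genes were measured, with 1 brighter and 1 dimmer by 2-fold (1.58% and 2.92% over all measured genes). The median was -0.08, and slightly above 0 after quantile normalization (0.01). The adult fast heavy chains Myh4, Myh1 and Myh2 gave -0.40, -0.28 and -0.08, and the fast troponins Tnnc2, Tnnt3 and Tnni2 gave -0.19, -0.15 and 0.07. Pvalb, the calcium buffer parvalbumin of fast fibres, was brighter in Dnmt3a-KO cells, at 3.34 and 8.05 (1.27), and a second probe gave 1.32. Myh13, the extraocular heavy chain, stood at 0.0521 in WT and was not well above background in Dnmt3a-KO, where its uncertain signal was 3.25-fold lower. The developmental and shared sarcomere genes lay between: 24 of 26 were measured, none reached 2-fold, 21 were below 0 and the median was -0.26. Embryonic myosin Myh3 stood at 316 and 241 (-0.39), titin (Ttn) at 23.2 and 16.1 (-0.53), nebulin (Neb) at 21.4 and 15.7 (-0.45) and alpha-actinin 2 (Actn2) at 56.8 and 42.0 (-0.43), while skeletal actin (Acta1) gave -0.11.

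**Figure D2:**
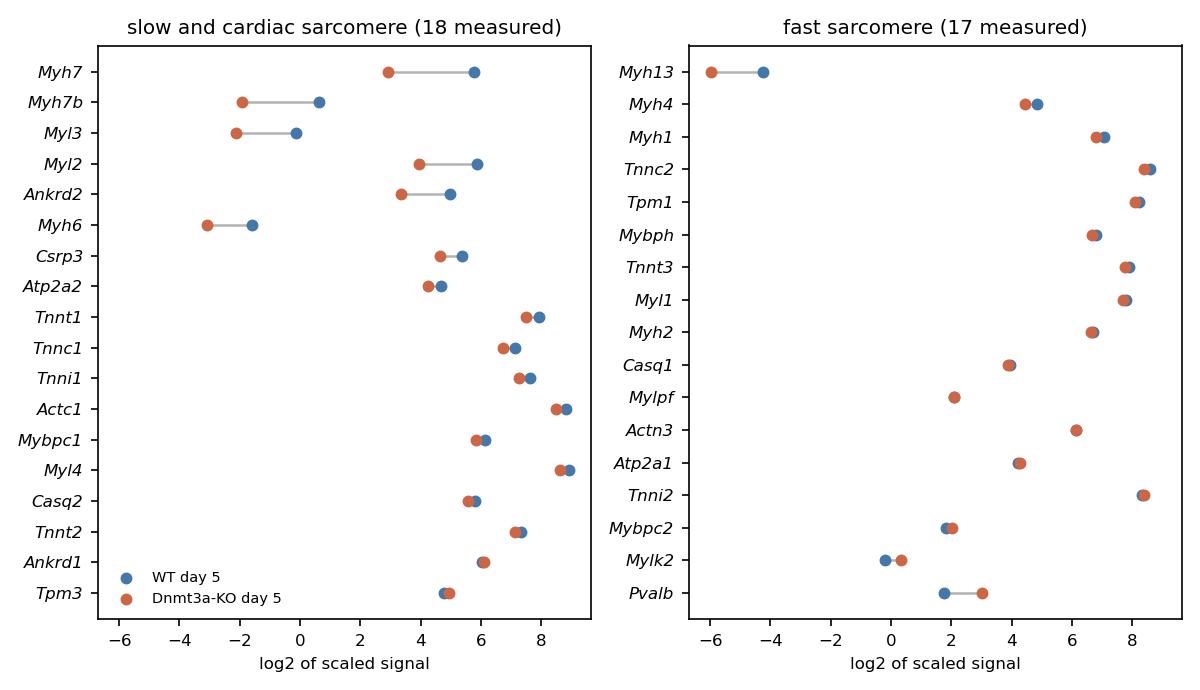
Log2 of the scaled signal of each measured slow and cardiac (left, 18 genes) and fast sarcomere gene (right, 17 genes) on the WT (blue) and Dnmt3a-KO (orange) array of day 5, joined by a line and ordered by the difference. The slow myosins Myh7, Myh7b, Myl3, Myl2 and Myh6 and Ankrd2 are separated by more than 1 log2 unit, and most fast genes overlap.

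The promoters of the slow genes were set beside all others because several of them differed together. RefSeq's GRCm38.p6 start sites gave a window of 250 bases before the start for 17 of the 18 measured slow genes and for 27025 genes in all (the outermost start was taken where a gene has several). The median number of CpG was 5 over these 17, 6 over all windows and 14 over the measured genes with a window, which are only 59.7% of the measured genes, so that no comparison with them is drawn. The E-box motif CANNTG, read by myogenic factors and the same on both strands, was found in 15 of the 17 (88.2%) and in 66.1% of all windows. CATTCC, the core of the muscle MCAT motif, on either strand, was in 6 of the 17 (35.3%) and in 12.6% of all. Of the 17 fast sarcomere genes 13 had a window, and CANNTG was in 10 (76.9%) and CATTCC in 6 (46.2%) of these, so CATTCC was no less frequent there. A match is a run of letters, not a bound site. Of the 6 slow genes that were 2-fold dimmer, all 6 windows held CANNTG but only 3 held CATTCC, which was absent from those of Myh7b and Myl2. Both windows shown, of Myh7 (chr14:54994627-54994876, minus strand, 5 CpG) and Myl3 (chr9:110763428-110763677, plus strand, 1 CpG), belong to dimmer myosin genes and hold both motifs. They are written 5′ to 3′ with every CpG in capitals.
Myh7: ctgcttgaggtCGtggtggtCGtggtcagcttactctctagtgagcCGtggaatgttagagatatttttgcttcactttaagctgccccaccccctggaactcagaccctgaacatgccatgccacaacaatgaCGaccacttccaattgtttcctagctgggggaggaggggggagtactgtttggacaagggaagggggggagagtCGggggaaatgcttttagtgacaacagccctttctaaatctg
Myl3: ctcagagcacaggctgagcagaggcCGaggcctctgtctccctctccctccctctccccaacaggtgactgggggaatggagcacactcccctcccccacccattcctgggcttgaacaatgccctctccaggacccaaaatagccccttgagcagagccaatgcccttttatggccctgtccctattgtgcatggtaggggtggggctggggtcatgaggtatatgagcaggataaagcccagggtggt

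The myogenic program upstream of the sarcomere showed small differences. Of 29 regulators and fusion genes 26 were measured, 1 was 2-fold brighter, none was dimmer by that fold and the median was -0.06. Over all measured genes 1.58% were brighter and 2.92% dimmer by that fold. The transcription factors Myod1 (8.24 and 8.52), Mef2c (8.24 and 8.21) and Myog differed by less than the SD of a single-spot difference, and Myf6 gave 0.30. Mymx, the microprotein myomixer that drives membrane fusion of myoblasts, stood at 26.9 in WT and 55.3 in Dnmt3a-KO (1.04). Its partner Mymk, myomaker, stood at 42.2 and 45.3 (0.10). On the other days Mymx gave 0.39, 1.68 and 1.14 on days 2, 4 and 6. The cell cycle inhibitor Cdkn1c, also an imprinted gene, stood at 13.9 and 7.30 (-0.93), and Cdkn1a at 69.7 and 74.3 (0.09), with 1.09 from a second probe.

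Genes of energy metabolism were slightly dimmer almost throughout. Of 45 measured subunits of the respiratory chain and ATP synthase, 43 lay below 0 with a median of -0.21, and none reached 2-fold. All 15 complex I and all 10 complex II and III members were negative. Glycolysis and glycogen genes gave a median of -0.22 with 26 of 30 below 0, again without a 2-fold member. Over all genes measured on at least 1 array, 59.8% lay below 0. These medians were -0.13 and -0.12 after quantile normalization and negative under all 8 settings. Genes of excitation-contraction coupling, the link from membrane voltage to calcium release, gave -0.15 with 19 of 24 below 0. Only Clcn1, the muscle chloride channel, differed by 2-fold among them (4.5% in either direction over all measured genes). It stood at 0.0423 in WT and was 3.07-fold dimmer in Dnmt3a-KO cells, by a spot not well above background. Cytosolic ribosomal proteins had a median of -0.11 with 68 of 77 below 0, and quantile normalization turned it to 0.01.

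BMP and GDF ligands are secreted factors that signal through type I and II receptor kinases to Smad proteins, and most lay above 0. Of 41 pathway genes 35 were measured, with 3 brighter and 1 dimmer by 2-fold (1.58% and 2.92% over all measured genes). All 3 brighter ones were ligands. The 12 measured ligands of this list had a median of 0.35, with 10 above 0. Over the wider symbol family of BMP and GDF ligands, with 15 measured, the median was 0.11 and 11 lay above 0. Gdf5, a ligand known from joint formation and from denervated muscle, stood at 0.728 and 2.37 (1.71), and a second probe of it, at 0.145 and 0.558, gave 1.94. The probes lie at chr2:155766801-155766860 and chr2:155768050-155768109 (mm9). Gdf7, of the same subfamily, stood at 0.108 and 0.321 (1.58). Bmp6 was well above background in Dnmt3a-KO cells alone, at 0.0673, which was 2.78-fold above the uncertain WT spot. Bmp4 (0.54), Bmp2 (0.53) and Gdf6 (0.29) were brighter by less than 2-fold. Gdf5 and Gdf7 were at least 2-fold brighter in Dnmt3a-KO cells on each of the 4 days, and the Gdf5 difference of day 5 was the smallest of its 4. Bmp6, by contrast, gave -1.47 on day 4.

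Most receptors of the pathway lay below 0, as did 59.8% of all measured genes. Its effectors and targets lay near that share, with 5 of 8 below 0 and a median of -0.07. The 7 receptors had a median of -0.27 with 6 below 0, and the median was -0.08 after normexp background correction. The lowest was Acvrl1 (ALK1), a type I receptor best known from endothelium, at 0.288 and 0.101 (-1.52). The endothelial markers summed to 3.72 and 3.06, nearly all from Kdr (3.64 and 2.97), and Flt1, on the longer endothelial list, stood at 0.110 and 0.0506 (-1.12). That list had 1 dimmer and no brighter gene among 9 measured (2.92% and 1.58% over all measured genes). Its part in the Acvrl1 value was not tested. The other type I and II receptors Bmpr1a, Acvr1 and Bmpr2 gave -0.06, -0.09 and -0.27. Among the antagonists, follistatin (Fst) stood at 17.4 and 10.9 (-0.67) and gremlin 1 (Grem1) at 2.59 and 4.48 (0.79). The Smad targets Id1, Id3 and Id2, whose transcripts report BMP signalling, gave -0.16, -0.10 and 0.39. The 250 bases before the Gdf7 start (GRCm38.p6, chr12:8301955-8302204, minus strand) hold 20 CpG, in capitals; the median was 6 over all windows and 14 over the measured genes with one. They are shown because Gdf7 was brighter on all 4 days. Methylation was not measured on these arrays.
Gdf7: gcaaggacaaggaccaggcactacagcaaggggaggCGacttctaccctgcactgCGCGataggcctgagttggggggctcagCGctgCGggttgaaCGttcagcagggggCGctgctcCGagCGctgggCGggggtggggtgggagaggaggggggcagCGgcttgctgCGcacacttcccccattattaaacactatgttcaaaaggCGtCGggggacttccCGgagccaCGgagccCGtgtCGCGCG

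Neighbouring signalling pathways gave scattered members. Of 59 Wnt genes 43 were measured, with 3 brighter and 1 dimmer by 2-fold (1.58% and 2.92% over all measured genes). The median was -0.04, and it was at or above 0 under 4 of the 8 settings. The ligands had a median of 0.26 with 9 of 12 above 0, led by Wnt10b, a ligand expressed in myoblasts, at 0.0898 and 0.213 (1.24). Its difference was positive on all 4 days. Dkk3, a secreted glycoprotein of the Dickkopf family, stood at 0.215 and 0.474 (1.14), and the agonist Rspo3 at 0.0980 and 0.0450 (-1.12). The receptor Fzd6 was 2.75-fold brighter than a WT spot not well above background. In the TGF-beta and activin pathway all 27 genes were measured: Tgfbr3, the betaglycan co-receptor, stood at 0.107 and 0.264 (1.30), and Inha, the inhibin alpha subunit, at 3.104 and 1.45 (-1.10). Among 18 measured Notch genes only Heyl, a target gene of the pathway, differed by 2-fold, at 0.154 and 0.0571 (-1.43). In the IGF pathway the binding protein Igfbp5, induced during myoblast differentiation, stood at 9.45 and 4.17 (-1.18) and Igfbp4 at 0.176 and 0.457 (1.37), while the ligands Igf1 and Igf2 lay within 1.4-fold.

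Satellite cell genes held 3 dimmer members and no brighter one among 24 measured (2.92% and 1.58% over all measured genes), with a median of -0.08. Pax7, the factor that marks satellite cells, stood at 0.160 and 0.0597 (-1.42), Heyl was given above, and the receptor Fgfr4 stood at 0.791 and 0.317 (-1.32), with -0.66 from a second probe. Pax7 gave -0.41, -0.45 and -0.68 on days 2, 4 and 6. The summed level of the 6 satellite cell markers was 99.7 in WT and 79.7 in Dnmt3a-KO, mostly that of Itga7 (76.3 and 61.7), an integrin that myotubes carry as well. The surface protein Cd34 was brighter, at 5.06 and 8.79 (0.80).

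Among imprinted genes, whose parental copies differ in methylation, 4 of 29 measured were at least 2-fold dimmer and none brighter, with a median of -0.15. The shares over all measured genes were 2.92% and 1.58%. Mest, a paternally expressed gene for a hydrolase-like protein of the endoplasmic reticulum, gave the lowest value of all named genes measured on both arrays. It stood at 3.06 in WT and 0.281 in Dnmt3a-KO, 9.20% of WT (-3.44), by the probe at chr6:30698279-30698338 (mm9). Its other probes, at chr6:30697385-30697444 and chr6:30692160-30692219, gave -3.13 and -2.73. Mest was dimmer in Dnmt3a-KO cells on every day, by -0.45, -1.85 and -1.70 on days 2, 4 and 6. Peg10, a retrotransposon-derived gene, stood at 0.0761 and 0.0313 (-1.28; second probe -1.16), Kcnq1, a potassium channel gene, at 0.110 and 0.0404 (-1.45), and the noncoding RNA Airn at 1.29 and 0.637 (-1.02). Airn falls outside the naming rule and was named after its value was seen, and its other 3 probes gave -1.74 to -0.19. The abundant H19, Igf2 and Meg3 gave -0.16, -0.18 and 0.28. Gnas gave -0.09 by its brightest probe and -1.60 to -0.53 by 3 others. The window before the outermost Mest start (GRCm38.p6, chr6:30733256-30733505, plus strand) holds 7 CpG, in capitals. RefSeq lists further starts of Mest downstream, which are not shown. No source used here says which start carries the methylation difference between the parental copies.
Mest: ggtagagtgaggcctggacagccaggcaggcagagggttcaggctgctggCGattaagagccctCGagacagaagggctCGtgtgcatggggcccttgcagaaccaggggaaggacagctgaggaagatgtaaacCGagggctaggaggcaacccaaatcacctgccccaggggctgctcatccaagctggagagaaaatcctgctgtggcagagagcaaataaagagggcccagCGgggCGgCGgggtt

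The methylation machinery itself differed little apart from Dnmt3a and Mbd4. All 20 genes were measured, with 1 brighter and 1 dimmer by 2-fold (1.58% and 2.92% over all measured genes). Dnmt1, the maintenance enzyme, stood at 0.282 and 0.258 (-0.13), and Dnmt3b, the other de novo enzyme, at 0.0526 and 0.0502 (-0.07). Of the genes that remove methylation, Tet1 and Tet2, which oxidise methylcytosine, gave -0.51 and -0.54. Mbd4, a glycosylase that repairs mismatches at CpG, stood at 0.0295 and 0.0828 (1.49). Germline genes known to be silenced by promoter methylation stayed dim: 8 of 33 were well above background on at least 1 array, 7 of these 8 lay below 0, and the median of -0.49 shrank to -0.09 after normexp background correction. The genes Ddx4, Sycp1, Tex101 and Dppa3 were at the floor of the scale on both arrays. Among 11 measured Rhox homeobox genes, 1 was brighter and 1 dimmer by 2-fold.

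The brightest genes in Dnmt3a-KO cells relative to WT came from no single list. Of the 15 with the largest difference among those measured on both arrays, Perp, a membrane protein induced by p53, stood at 0.5003 and 2.41 (2.27), and it was brighter on each of the other days, by 2.44, 1.55 and 0.79. All 8 genes of the p53 list that act in cell death lay above 0, with a median of 0.28, but only Perp reached 2-fold. Over all measured genes 59.8% lay below 0 and 1.58% were 2-fold brighter. Trp53 itself gave 0.18. The alarmin Il33 stood at 0.0380 and 0.171 (2.16), and the gene of its receptor, Il1rl1, at 0.341 and 1.37 (2.00), with 1.78 from a second probe. Its remaining probe was not well above background. Penk, the proenkephalin precursor, stood at 0.744 and 2.84 (1.93), and Cyp26b1, which degrades retinoic acid, at 0.267 and 0.915 (1.78). Meox2, a homeobox factor of limb muscle precursors, stood at 0.0550 and 0.223 (2.02), and the phospholipase Pla2g3 at 0.0436 and 0.183 (2.06). On days 2, 4 and 6 Meox2 gave 0, -1.94 and -0.58, and Pla2g3 gave -0.78, -0.63 and -0.33. Il1rl1 was positive on each of these days, by 1.31, 1.43 and 0.46. Prl2c5 stood at 2.38 and 9.58 (2.01), with 2.06 from a second probe. It belongs to the proliferin genes, whose near-identical copies 1 probe may not tell apart, and the same holds for Mup4 (2.31) and Klra4 (1.98). Efcab7, Cacna1c, Gpr149 and Ccdc30 gave smaller values, of 1.93, 1.87 (second probe 0.36), 1.80 and 1.72, with signals from 0.0298 to 0.171.

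Decorin (Dcn), a small proteoglycan secreted by fibroblasts and by muscle cells, completed these 15, at 0.453 and 1.62 (1.83). The fibroblast markers Pdgfra and Ly6a differed in the same direction by 0.31 and 0.37, Pi16 gave -0.18, and the part of fibroblasts in the Dcn value was not tested. The matrix list as a whole had a median of 0.10 over 50 measured genes, with 2 brighter and 1 dimmer (1.58% and 2.92% over all measured genes). Col18a1, the basement membrane collagen from which endostatin is cut, stood at 5.28 and 1.93 (-1.45; second probe -1.74). Outside that list, Col7a1, of anchoring fibrils, stood at 2.62 and 5.50 (1.07), Col22a1, of muscle-tendon junctions, at 0.112 and 0.299 (1.41), and Col8a2 at 0.0836 and 0.0368 (-1.18; second probe -2.51). Of 26 measured cytokine and chemokine genes 17 lay above 0 with a median of 0.31. Among the chemokines of that list 8 of 9 were above 0, from Ccl2 (5.16 and 6.39) to Cxcl1 (0.0384 and 0.0675, 0.82), none by 2-fold, and Cx3cl1 went the other way at 2.09 and 1.18. Ccl17, a chemokine outside the list, stood at 0.410 and 0.0843 (-2.28), and Il1b at 0.110 and 0.0525 (-1.07).

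Further genes with large dimmer values were spread over functions. Pou6f1, a homeodomain factor, stood at 0.176 and 0.0227 (-2.96), the esterase-like gene Pced1b at 0.277 and 0.0436 (-2.67) and Aire, the thymic regulator, at 0.0976 and 0.0178 (-2.45). B3galt5, a galactosyltransferase, stood at 0.634 and 0.122 (-2.38), Usf3 at 0.144 and 0.0285 (-2.33), Armc2 at 0.217 and 0.0444 (-2.28), the ephrin receptor Epha1 at 0.569 and 0.121 (-2.24) and the transporter gene Slc35f4 at 0.0572 and 0.0123 (-2.22). Plac8l1 completed the 15 at -2.88. Most of these are under 1 on the scale, where a difference rests on a dim spot. Tbx4, the hindlimb T-box factor, stood at 0.435 and 0.152 (-1.52), and Capn6, a calpain without protease activity, at 1.97 and 0.897 (-1.14). Hspb6, a small heat shock protein of muscle, stood at 6.02 and 2.74 (-1.14). Tbx4 and Capn6 were dimmer in Dnmt3a-KO cells on all 4 days.

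**Figure D3:**
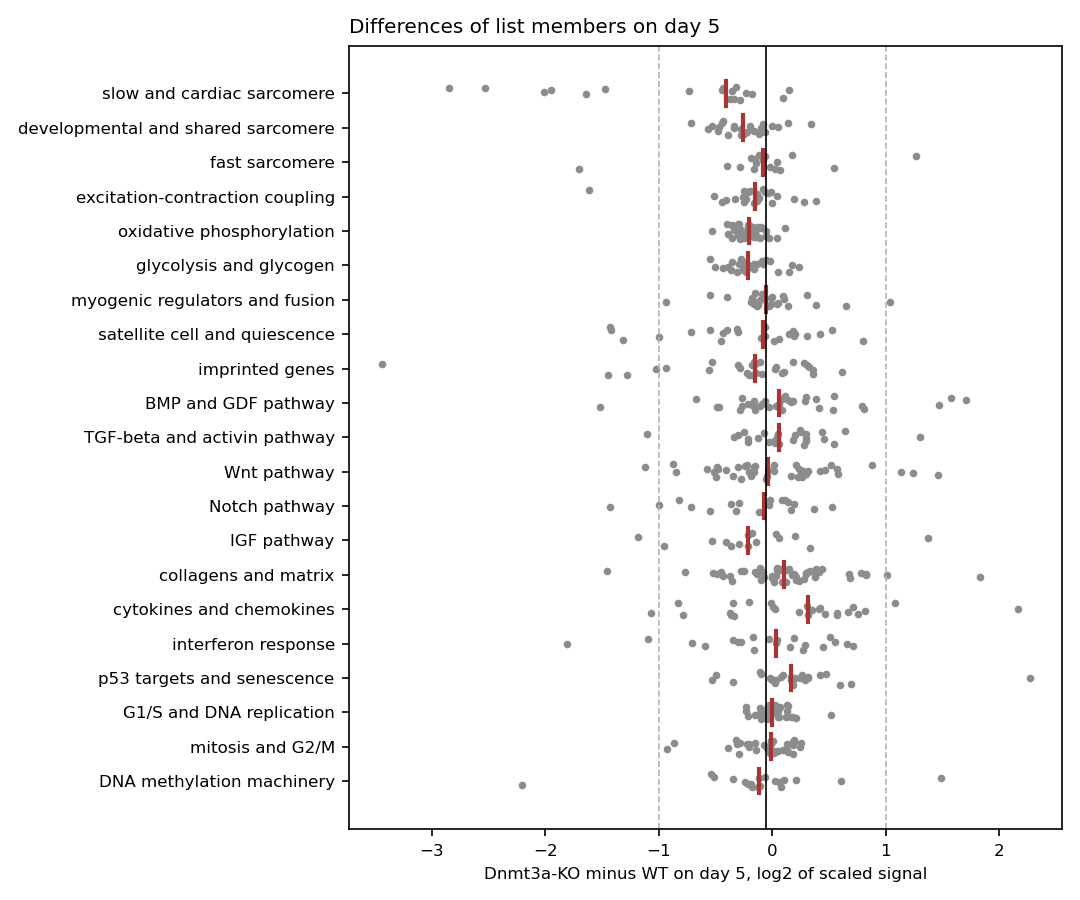
Difference of Dnmt3a-KO minus WT on day 5 (x axis, log2) for each measured member (grey points) of 21 gene lists, with the list median as a red bar, the median of all measured genes as a black line and 2-fold differences as dashed lines. Among the 21 lists drawn the slow and cardiac sarcomere list has the lowest median (-0.41) and cytokines and chemokines the highest (0.31), the germline list (-0.49) is not drawn, and no G1/S or mitosis member passes a dashed line.

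Some large values rest on a spot that was well above background on 1 day 5 array only. Such a spot gives a bound, the bright signal over either the signal of the dim spot or the dimmest one called well above background on the other array, whichever is larger. Where the dim spot's own signal is the larger, the value is a plain ratio to an uncertain signal and not a minimum. It is then given without the words at least. The dimmest called spot stood at 0.0119 in WT and 0.0109 in Dnmt3a-KO, but some brighter spots were not called, such as Mmp3 at 0.0288 in WT. A value given as at least is thus relative to the dimmest called spot and is no firm minimum. Gpr3, an orphan receptor coupled to the G protein Gs, was at least 60.6-fold dimmer: it stood at 0.663 in WT and at the floor in Dnmt3a-KO, while the other 6 arrays gave 0.532 to 0.868. Pkp1, a desmosome protein, stood at 1.02 in WT and was 44.4-fold dimmer by the plain ratio to a spot not well above background. It was dimmer in Dnmt3a-KO cells on the other days too, by -0.96, -1.08 and -1.59. Uox (at least 21.3-fold), Klk7 (17.3-fold), Mrap2 (13.0-fold) and Olfr889 (10.1-fold) were well above background on the WT array of day 5 and on none of the other 7. Rbbp9, a serine hydrolase, gave a plain ratio of 20.5-fold, but its second probe gave 0.23 with the opposite sign. Pnlip, the pancreatic lipase, was 10.4-fold dimmer by a plain ratio and stood at 0.139 on the Dnmt3a-KO array of day 6.

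In the other direction, Tac1, the substance P precursor, stood at 0.201 in Dnmt3a-KO cells and was 15.5-fold brighter by a plain ratio. Pygo1, a Wnt coactivator (at least 15.1-fold), and the pheromone receptor genes Vmn1r68 (11.3-fold) and Vmn1r71 (9.99-fold) were well above background on this array alone of the 8. Myo1g, an unconventional myosin of blood cells, was 14.9-fold brighter by a plain ratio. Vmn1r219 was at least 12.1-fold brighter and Il22ra2, a decoy receptor for interleukin 22, at least 7.92-fold. On day 6, though, Il22ra2 was at the floor in Dnmt3a-KO cells and at 0.151 in WT. Tescl was at least 9.11-fold brighter, and its second probe gave 2.85. In all, 94 of the 329 brighter genes (28.6%) and 141 of the 608 dimmer ones (23.2%) were well above background on a single array of the 8, against 2.43% of all genes measured on day 5. The olfactory receptor family had 183 of 1099 members measured, with 9 brighter and 20 dimmer by 2-fold (1.58% and 2.92% over all measured genes). The median was -0.23, and -0.01 after normexp background correction. Some members of the family are near copies of each other, most were not well above background, and their values are uncertain.

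Whether the day 5 difference departs from that of the other days was tested with limma on all 8 arrays, with day as a block and 2 residual degrees of freedom. Day 5 has 1 array a genotype and adds nothing to the residual, so the spread comes from the genotype differences of days 2, 4 and 6 alone, together with limma's prior over all genes. Day 2 was on another slide and scanner and had the opposite sex-linked pattern. The p-values concern that departure and not the day 5 difference itself. Nothing in the labels tells if each day was a culture or animal of its own, so these p-values measure the spread between arrays, which may be technical. Of 19507 genes tested, 0 passed an adjusted p of 0.05 (0.0%), and 1364 (6.99%) reached an unadjusted p below 0.05. Of these, 475 had a higher and 889 a lower difference on day 5. The smallest adjusted p was 0.0591, for Gpr3, whose difference on day 5 minus the mean of the other days was -6.53. With an intensity trend in limma's prior variance, 2 genes passed, Gpr3 and the unnamed gene Gm6686. Among the named genes the next smallest adjusted p was 0.335 by limma, shared by Pkp1 (-4.26 against the other days), Tescl (3.19) and Pla2g3 (2.65).

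Cell cycle genes differed less between genotypes on day 5 than on the other days by their medians, and none of them passed the adjusted test. On day 5 no mitosis or G1/S gene differed by 2-fold: the 33 measured mitosis genes had a median of -0.01 and the 35 G1/S and replication genes of -0.00, both at or above 0 under 5 of the 8 settings. On days 2, 4 and 6 the same mitosis genes gave medians of -0.92, -1.13 and -0.84. In the test against the other days, 22 of 33 mitosis and 13 of 35 G1/S genes had an unadjusted p under 0.05, against 6.99% of all genes tested, and none of either passed after adjustment. Mki67, a marker of cycling cells, stood at 0.514 in WT and 0.507 in Dnmt3a-KO on day 5, between 0.747 and 0.322 on day 4 and 0.646 and 0.231 on day 6. Cdc20, an activator of the anaphase-promoting complex, stood at 1.103 and 1.26 on day 5, after 1.60 and 0.630 on day 4 and before 1.44 and 0.669 on day 6. In both genes the day 5 WT value was the lowest of the 4 WT days and the day 5 Dnmt3a-KO value lay above those of days 4 and 6.

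Matrix genes had a like pattern on the Dnmt3a-KO side. The median level of the 50 measured matrix genes was 0.59 and 0.57 (log2) in WT and Dnmt3a-KO cells on day 5, against 0.21 and -0.70 on day 4 and 0.21 and -0.59 on day 6. Col1a1, the chain of type I collagen, stood at 24.6 in Dnmt3a-KO cells on day 5 and at 2.42 and 5.13 on days 4 and 6, and in WT at 21.3, 13.6 and 12.3. Of 48 matrix genes tested against the other days, 5 had an unadjusted p under 0.05 (6.99% over all genes tested) and none passed after adjustment. The fibroblast marker list had a median of 0.05 on day 5 and of -0.84 and -0.52 on days 4 and 6, and its part in the matrix values was not tested.

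**Figure D4:**
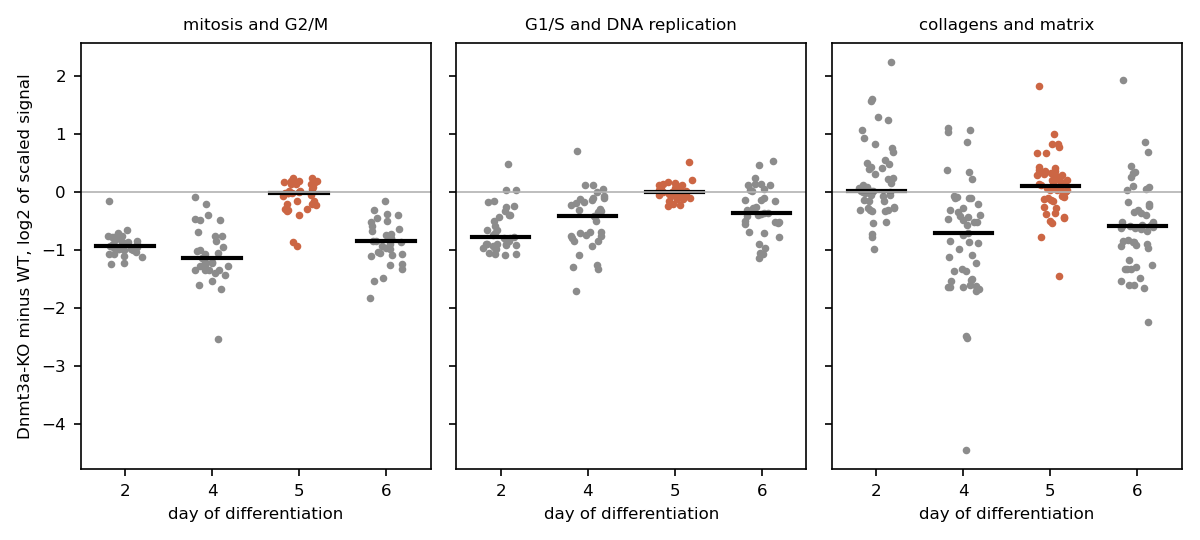
Difference of Dnmt3a-KO minus WT (y axis, log2 of scaled signal) on each day (x axis) for the members of the mitosis, G1/S and matrix lists measured on day 5, 1 point per gene, with the median as a black bar; day 5 is orange. The mitosis medians are -0.92, -1.13, -0.01 and -0.84 on days 2, 4, 5 and 6.

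The 2-fold genes of day 5 were then followed through the other days, over 16983 genes well above background on all 8 arrays. Of 94 brighter genes, 34 (36.2%) were brighter on all 3 other days and 49 (52.1%) reached 2-fold in the same direction on at least 1 of them. Of 188 dimmer genes, 81 (43.1%) were dimmer on all 3, and 81 reached 2-fold on at least 1. Over all 16983 genes, 23.5% kept the sign of day 5 on all 3 days and 3.80% reached 2-fold in that direction on at least 1. Genes beyond 2-fold on all 4 days numbered 7 brighter and 10 dimmer. Apart from names skipped by rule, the brighter ones were Gdf5, Gdf7, Mss51 and Svop, and the dimmer ones Dnmt3a, Myh7, Myh6, Capn6, Ccdc80, Gtpbp8 and Usf3. Mss51, Svop, Ccdc80 and Gtpbp8 fall outside the naming rule and were picked after their values were seen.

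**Figure D5:**
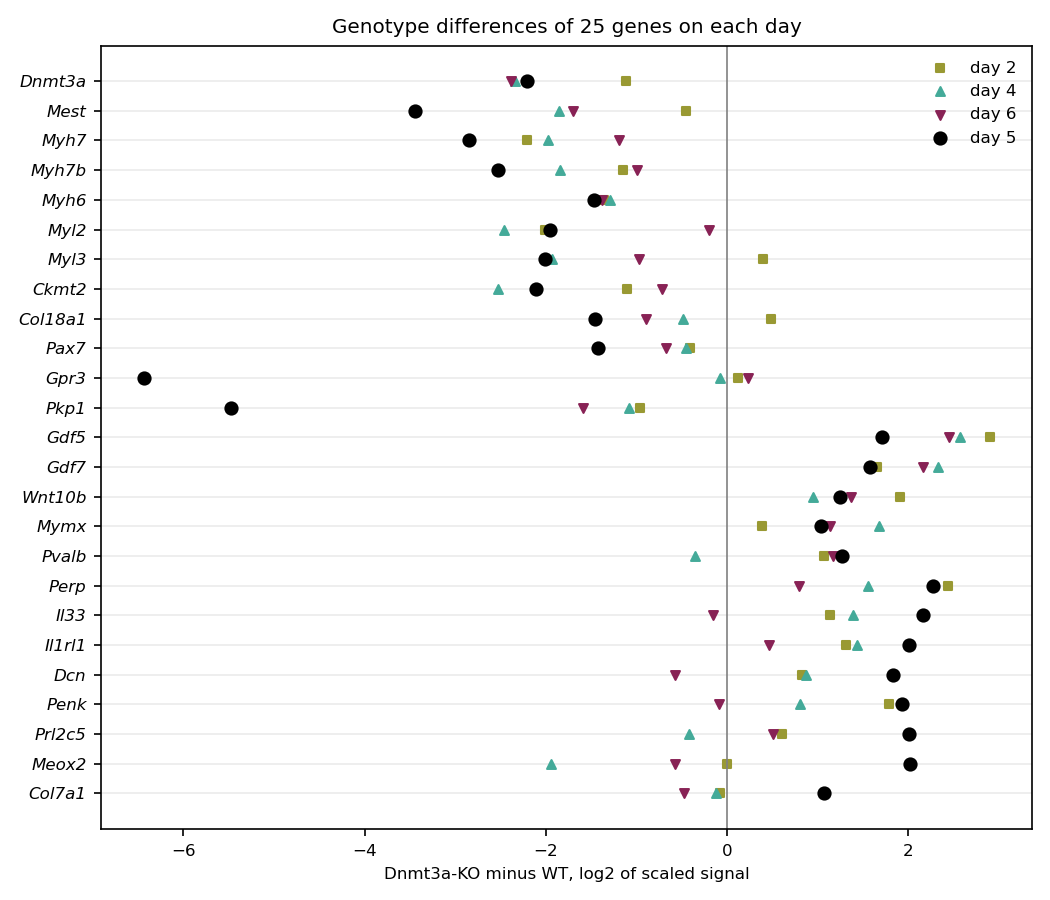
Difference of Dnmt3a-KO minus WT (x axis, log2 of scaled signal) on days 2, 4, 5 and 6 for 25 genes described in the text, with day 5 as large black circles. Dnmt3a, Mest, Myh7, Myh7b, Myh6, Myl2, Ckmt2, Pax7 and Pkp1 lie left of 0 on all 4 days. Gdf5, Gdf7, Wnt10b, Mymx, Perp and Il1rl1 lie right of 0 on all 4 days. Gpr3, Prl2c5, Col7a1, Col18a1, Pax7 and Dcn differ by over 2-fold on day 5 alone.

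By chromosome, the share of measured genes that were 2-fold dimmer ran from 2.28% on chromosome 17 to 4.68% on chromosome 16 (31 of 662), and that of brighter genes from 0.803% on chromosome 11 to 2.41% on chromosome 10. Among large families, the solute carriers had 3 brighter and 6 dimmer of 246 measured, the potassium channels 1 and 3 of 46 with a median of -0.19, the zinc finger proteins 1 and 2 of 341, and the heat shock proteins 0 and 1 of 65. Over all measured genes 1.58% were brighter and 2.92% dimmer, so the solute carriers lay near the background. Histone cluster genes had a median of 0.13 with 36 of 52 above 0. Hox genes, which record position along the body axis, had 2 brighter and 2 dimmer in a list of 30 measured genes that includes the hindlimb factor Tbx4, with a median of -0.02 that was 0.05 after quantile normalization. Interferon response genes had 2 dimmer of 21 measured, Mx2 at 0.0677 and 0.0317 (-1.09) and Ifi44, at least 2.48-fold dimmer.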

How the data were processed

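The deposited scanner files hold spot intensity, extracted by the authors with Agilent Feature Extraction 9.5.3.1 on a G2505B scanner for days 4 to 6 and 11.0.1.1 on a G2505C for day 2, per the file headers. The submitters' processing notes name version 9.5. The deposited value table holds a score, which matched 100 times the processed signal over the 75th percentile of all spots, rounded, within 1 unit on 100% of spots (column medians 6). Its scale is known, and 0 columns were of other samples.

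Here the processed signal was divided by the 75th percentile of non-control spots, floored at 0.00763 and put on the log2 scale. The deposited values were not on a log2 scale. Outlier-flagged spots were left out, spots of a probe averaged, and 39403 of 39429 probes kept. By RefSeq (GRCm38.p6), 26144 probes were named through accession, 3121 symbol and 911 synonym, and 9227 kept the file name. The brightest probe stood for a gene. A gene counted at 2-fold needed its brighter array well above background. limma 3.58.1 in R 4.3.3 tested day 5 against the other days with Benjamini-Hochberg adjustment (genes well above background on at least 4 arrays). On simulated data with 19507 genes it recovered 71 of 100 changes of 2 log2 units and 96 of 100 of 4, with 7 false calls. The simulated noise was normal and independent between genes, with variances from limma's own fit. These shares therefore do not tell how many departures of that size would be found on the real arrays.

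Of 1032 symbols in 43 lists, 5 had no usable probe named for them. Named were Dnmt3a, Gdf5, the 15 largest differences per direction measured on both arrays, the 8 largest bounds per direction, up to 3 members per list or family and direction, and genes past the test. Members, lists and the rule were chosen with earlier results of these data known. Alternatives covered scaling, background, filters, probes, fold threshold, prior variance and leaving out a day.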

Additional observations from a re-analysis of the deposited data

How the results depend on the processing

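All 129 named 2-fold genes kept their direction under the 7 alternative scalings, backgrounds and probe choices. Of them, 126 stayed beyond 2-fold after quantile normalization, 121 after loess, 128 with all probes averaged, 129 in the deposited scores and 49 after normexp correction, whose offset of 50 pulls dim values together. The counts of brighter and dimmer genes were 61 and 72 with normexp, 131 and 238 with both arrays well above background, 779 and 1585 at 1.5-fold, and 97 and 133 at 4-fold. Without a filter on dim probes 1035 genes were dimmer. The test against the other days made 5085 calls with normexp (5074 of them higher on day 5, with a median shift of 0.47 over all genes), the cause of which was not tested, and 2 with an intensity trend. Leave-one-out fits without day 2, 4 or 6 gave 0 to 0 calls, and 1003 to 2071 genes at an unadjusted p under 0.05. The test against the other days pairs the genotypes within each day. No paired analysis was possible by replicate number, because the labels give none. Of 83 list and family medians, 1 moved by more than the SD of a single-spot difference under quantile normalization and 6 under normexp, and none reversed past it. A spot near background gives only a bound or an uncertain ratio, and a blemish on 1 spot cannot be told apart from a change of the gene.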
